A study of Mus musculus with 6 samples.

Results

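The genes described here are 10 listed genes around YAP and TAZ, the transcriptional coactivators that the Hippo pathway restrains. They were taken by symbol from the deposited count table, which lists 21936 genes, and all 10 passed the count filter that left 11809 genes for testing. They are Ccn1, Ccn2, Ankrd1, Amotl2, Axl, Ajuba and Lats2, which are known as YAP/TAZ targets, and Yap1, Wwtr1 and Tead1, which encode YAP, TAZ and one of their DNA-binding partners. Polyadenylated RNA was sequenced from PAM212 cells, a mouse line labelled as keratinocytes and kept in DMEM supplemented with FBS. In 3 libraries the cells had been infected with a lentivirus carrying mouse miR-28-3p, and 3 control libraries came from PAM212 cells whose treatment label says that they were not treated. The labels do not say whether the controls received an empty virus, nor whether same-group libraries come from separate cultures, so the p-values may measure technical spread only. All 6 libraries come from this single line, and if the controls were not infected, infection and the microRNA itself cannot be told apart.

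In the Hippo pathway a kinase cascade ends in LATS1 and LATS2, which phosphorylate YAP and TAZ and so keep them in the cytoplasm or mark them for breakdown. YAP and TAZ that reach the nucleus bind TEAD proteins and activate genes for matricellular proteins, cytoskeletal regulators and receptors, and also genes such as Lats2 and Amotl2 that feed back on YAP. In the epidermis YAP and TAZ are known for roles in basal cell growth and wound repair. Their activity is set largely by phosphorylation and location, which messenger RNA does not show.

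Libraries held between 14309898 and 16383374 counted reads. Of 10 keratinocyte markers, 4 lay under 1 CPM (a gene's counts scaled to its library's total, with TMM factors between libraries) with overexpression and 2 in the controls. Krt5, a defining basal keratin, had 0 counts in all 6 libraries, and Krt15 had 0 with overexpression and averaged 21.4 CPM in the controls. Trp63 averaged 0.11 CPM with overexpression and 1.13 CPM in the controls, while Cdh1 averaged 532 and 382 CPM. The 10 keratinocyte markers also include Krt14, Krt17, Itga6, Itgb4, Dsp and Perp. Together the 10 summed to between 1387 and 1428 CPM with overexpression, above the 1126 to 1149 CPM of the controls. The 6 fibroblast markers summed to between 16.2 and 17.1 CPM with overexpression and between 43.3 and 52 CPM in the controls, mostly Pdgfra, with Lum at 0 in every library. The 6 melanocyte markers are given because the series' design text names melanocytes. They summed to between 6.14 and 7.71 CPM with overexpression and between 8.05 and 9.78 CPM in the controls, with Tyr at 0. The 4 immune markers summed to between 4.74 and 6.53 CPM with overexpression and between 18.3 and 21.3 CPM in the controls, mostly Cd68, and the 4 endothelial markers to under 1 CPM. The part of these markers in the results below was not tested. In such bulk RNA, fewer cells of a type and less RNA per cell cannot be told apart.

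The overexpressed microRNA is printed first because its seed defines the sites looked for in the listed genes. The mature mouse sequence is from RefSeq (GRCm38.p6), with the seed, bases 2 to 8, in capitals.
miR-28a-3p, chr16:24827908-24827929, plus strand: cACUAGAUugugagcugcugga
The matching 7-base site is ATCTAGT. The longest annotated 3' UTR of each listed gene (GENCODE mouse release M21, GRCm38) was searched for it, and 1 of the 10 genes held it, Wwtr1, in a 3' UTR of 3277 bases. The site is printed with its flanks on the transcribed strand, the 7 bases in capitals.
Wwtr1 site, chr3:57456324-57456352, minus strand: actgtcagactATCTAGTcttcttagtcc
Among 11679 tested genes with an annotated 3' UTR, 785 (6.72%) held the site. Of the genes with the site 27.9% were called lower and 57.7% higher with overexpression, against 44.9% and 41.2% of those without it, which have shorter 3' UTRs (median 1288 bases, against 2829 bases with the site). A site in the printed letters does not show that the microRNA binds there.

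The promoters of the listed genes were searched for the core that TEAD proteins recognise, GGAATG or its reverse complement CATTCC. Several of these genes are known as YAP/TAZ targets because TEAD proteins bind them, so the choice of genes is not independent of these letters and the counts below are a description only. RefSeq promoter windows (GRCm38.p6, 250 bases before to 50 after a transcription start) were found for 8 of the 10 genes, and Ccn2 and Tead1 had no entry. These 8 held the core in at least 1 window, against 14.7% of 32851 windows and 16.6% of 27025 genes with a window. None of the 8 held TGANTCA, the AP-1 motif, which reads the same on both strands. It was found in 7.81% of windows and in 8.97% of genes with a window, and 8 genes are too few to differ from that share. Among the other genes of the pathway the TEAD core stood in the windows of 3 of 12 kinase cascade genes, 3 of 8 YAP binders and regulators, 4 of 6 other TEAD and VGLL genes and 2 of 10 other targets. The 4 windows below are shown because these targets rose most among the genes with a window, or hold the core in a pair. Each is given on the gene's own strand with the core in capitals.
Ccn1, chr3:145649936-145650235, minus strand: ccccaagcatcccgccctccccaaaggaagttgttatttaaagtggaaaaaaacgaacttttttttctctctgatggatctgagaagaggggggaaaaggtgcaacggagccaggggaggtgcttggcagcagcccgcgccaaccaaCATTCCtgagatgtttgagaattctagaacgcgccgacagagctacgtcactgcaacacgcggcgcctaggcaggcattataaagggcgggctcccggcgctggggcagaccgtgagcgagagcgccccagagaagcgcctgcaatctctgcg
Ankrd1, chr19:36119795-36120094, minus strand: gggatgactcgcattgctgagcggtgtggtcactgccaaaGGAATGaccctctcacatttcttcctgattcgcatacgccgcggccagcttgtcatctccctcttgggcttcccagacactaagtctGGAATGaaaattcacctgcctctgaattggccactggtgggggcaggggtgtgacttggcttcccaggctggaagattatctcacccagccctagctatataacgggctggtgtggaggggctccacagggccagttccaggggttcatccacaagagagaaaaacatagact
Amotl2, chr9:102717554-102717853, plus strand: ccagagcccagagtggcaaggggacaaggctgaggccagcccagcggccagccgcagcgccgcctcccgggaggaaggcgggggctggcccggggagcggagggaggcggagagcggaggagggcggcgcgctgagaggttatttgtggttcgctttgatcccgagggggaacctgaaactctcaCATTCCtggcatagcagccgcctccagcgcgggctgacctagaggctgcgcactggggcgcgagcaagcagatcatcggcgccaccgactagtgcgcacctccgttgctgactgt
Ajuba, chr14:54577612-54577911, minus strand: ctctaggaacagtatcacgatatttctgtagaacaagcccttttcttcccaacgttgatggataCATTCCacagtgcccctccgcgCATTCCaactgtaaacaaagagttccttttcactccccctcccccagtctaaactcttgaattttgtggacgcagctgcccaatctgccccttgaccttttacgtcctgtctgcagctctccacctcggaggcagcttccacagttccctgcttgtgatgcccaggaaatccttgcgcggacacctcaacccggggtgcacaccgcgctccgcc
The core starts at base -103 from the start site in Ccn1, at -65 in Amotl2, at -210 and -123 in Ankrd1, and at -186 and -164 in Ajuba. In Axl it starts at -233 and in Yap1 at -141. Lats2 holds it at base 5 after the start in 1 of its 2 windows. Wwtr1 holds the same single copy in 2 overlapping windows, at -170 and at -136. A match is a run of letters and not a measured binding site.

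With miR-28-3p overexpression 9 of the 10 genes rose and Wwtr1 fell, though the call for Yap1 was lost once a trend on gene length was removed. Most tested genes (86.0%) differed between the groups, and in edgeR's quasi-likelihood test 42.1% of all tested genes were called higher and 43.9% lower at an adjusted p (Benjamini-Hochberg over all tested genes) under 0.05. That is 4975 higher and 5184 lower calls, which became 3961 and 6288 with upper quartile scaling, where the 10 genes kept their directions. At least 2-fold rises were called for 7 of the 10 genes, against 14.8% of all tested genes. The median log2 fold change of the 10 was 1.41, against -0.03 over all tested genes. The 10 genes were chosen with earlier results of these data known, so these comparisons are a description only. For 9 genes the lowest overexpression library exceeded the highest control library, a pattern seen in 42.2% of tested genes, and for Wwtr1 the reverse held, as in 43.8%. Together the 10 genes took between 0.313 and 0.317% of a library's counts with overexpression and between 0.136 and 0.138% in the controls.

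**Figure D1:**
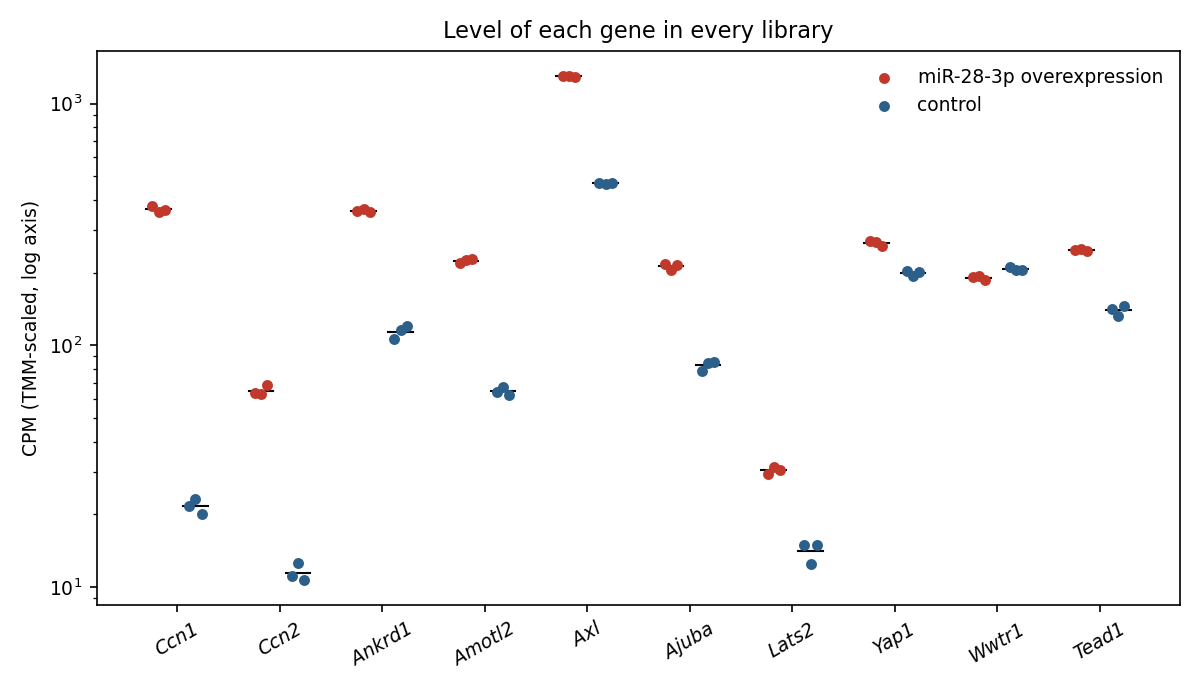
Level of each of the 10 genes in TMM-scaled CPM on a log axis. Each point is 1 library, overexpression libraries in red at the left and control libraries in blue at the right of each gene, and a black line at the group mean of n = 3. The groups do not overlap for any gene, the gap is widest for Ccn1 (357.6 to 376.1 CPM against 20 to 23.2 CPM), and only Wwtr1 lies lower with overexpression.

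The secreted targets rose most. Ccn1 (ENSMUSG00000028195, chromosome 3, 145646976 to 145649981, GRCm38), a matricellular protein that binds integrins, had 376.1, 357.6 and 362.7 CPM in the overexpression libraries and 21.6, 23.2 and 20 CPM in the control libraries. The lowest overexpression library was thus far above the highest control library. The log2 fold change was 4.08 ± 0.04 (SE, derived as the log2 fold change over the square root of its F statistic; edgeR adjusted p = 1.48e-62), a 16.9-fold rise. By size of rise Ccn1 ranked 24 among the 11809 tested genes. Ccn2 (ENSMUSG00000019997, chromosome 10, 24595442 to 24598683), its relative once called connective tissue growth factor, had 63.4, 63 and 68.4 CPM with overexpression and 11.1, 12.6 and 10.7 CPM in the controls. It rose 5.66-fold, a log2 fold change of 2.50 ± 0.07 (edgeR adjusted p = 2.79e-38), and the groups were well apart. An opposite-strand transcript, Gm15270, shares 665 exon bases with Ccn2 in the annotation, and the labels do not say whether counting used strand.

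Within a library the ratio of Ccn1 to Ccn2 does not depend on library scaling. In FPKM, the deposited unit of reads scaled to gene length and library total, that ratio was 8.41, 8.05 and 7.51 in the overexpression libraries and 2.75, 2.61 and 2.64 in the controls. The log2 ratio was higher with overexpression by 1.58 ± 0.05 (SE of the difference, n = 3 each; exact permutation p = 0.1, two-sided). That p is the smallest that 3 libraries against 3 can give. In this ratio all 3 overexpression libraries stood above all 3 controls.

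The intracellular and receptor targets rose between 2.16-fold and 3.46-fold. Amotl2 (ENSMUSG00000032531, chromosome 9, 102716672 to 102733418), an angiomotin-family scaffold of cell junctions that binds YAP, had 218.1, 225 and 227.1 CPM with overexpression and 64, 67.3 and 62.5 CPM in the controls. Its log2 fold change was 1.79 ± 0.04 (edgeR adjusted p = 2.1e-46). Ankrd1 (ENSMUSG00000024803, chromosome 19, 36111961 to 36120099), an ankyrin-repeat protein known from heart muscle, had 358.3, 365.5 and 357.3 CPM with overexpression and 106.1, 116 and 120 CPM in the controls. Its log2 fold change was 1.66 ± 0.03 (edgeR adjusted p = 2.81e-48). In both genes the spread within a group was a small part of the gap between groups.

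Axl (ENSMUSG00000002602, chromosome 7, 25757273 to 25788705), the receptor tyrosine kinase for the ligand Gas6, was the most abundant of the 10 in both groups. It had 1302, 1299.4 and 1288.4 CPM with overexpression and 469.2, 466.6 and 469 CPM in the controls, a log2 fold change of 1.47 ± 0.02 (edgeR adjusted p = 7.73e-55). Axl alone supplied between 0.1245 and 0.126% of the counted reads with overexpression and between 0.0481 and 0.0486% in the controls.

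Ajuba (ENSMUSG00000022178, chromosome 14, 54567472 to 54577558), a LIM protein that binds LATS kinases and holds them at junctions, had 217.9, 205.4 and 214.2 CPM with overexpression and 78.5, 84.8 and 85.2 CPM in the controls. It rose 2.57-fold, a log2 fold change of 1.36 ± 0.04 (edgeR adjusted p = 2.09e-40). Lats2 (ENSMUSG00000021959, chromosome 14, 57689662 to 57758388), the kinase that phosphorylates YAP and is itself induced by it, had 29.4, 31.4 and 30.6 CPM with overexpression and 15, 12.5 and 14.9 CPM in the controls. It rose 2.16-fold, a log2 fold change of 1.11 ± 0.09 (edgeR adjusted p = 8.27e-18), with the largest standard error of the 10. The protein-coding gene Gm49361 shares 2955 exon bases with Lats2 on the same strand and is listed at 0 in every library, so reads in the shared bases may have been dropped and the level of Lats2 may be too low in both groups.

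The core factors changed least. Yap1 (ENSMUSG00000053110, chromosome 9, 7931999 to 8004596) had 269.4, 267.6 and 256.6 CPM with overexpression and 203.2, 193.6 and 200.8 CPM in the controls. It rose 1.33-fold, a log2 fold change of 0.41 ± 0.03 (edgeR adjusted p = 1.65e-19), without overlap. Wwtr1 (ENSMUSG00000027803, chromosome 3, 57455649 to 57575910), which encodes TAZ and holds the printed site, had 191.9, 193 and 187.1 CPM with overexpression and 211.1, 205.9 and 205 CPM in the controls. It fell by 8.07%, a log2 fold change of -0.12 ± 0.03 (edgeR adjusted p = 0.000261), and its groups did not overlap but lay close. Tead1 (ENSMUSG00000055320, chromosome 7, 112679318 to 112906807), a DNA-binding partner of both coactivators, had 248.1, 250.9 and 245.2 CPM with overexpression and 141.2, 132.4 and 145.3 CPM in the controls. It rose 1.78-fold, a log2 fold change of 0.83 ± 0.03 (edgeR adjusted p = 2.7e-32). Against a minimum change of 1.5-fold (glmTreat in edgeR) 8 of the 10 genes were called higher, where 23.4% of all tested genes were called higher and 27.0% lower. Neither Yap1 nor Wwtr1 was called there (adjusted p = 1 for both).

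Changes of this size move with gene length in these libraries. Averaged over counted reads, the length of their genes was between 6021 and 6050 bases with overexpression and between 5091 and 5119 bases in the controls. With the tested genes cut into 5 equal groups by length, the median log2 fold change ran from -0.54 in the shortest group to 0.47 in the longest, which holds Yap1 (9257 bases) and Tead1 (13570 bases). Once a trend on length was removed, Yap1 stood at a log2 fold change of 0.02 (edgeR adjusted p = 0.612) and was no longer called, and Tead1 stood at 0.29. Of the 10 genes 8 were then called higher and 1 lower, against 43.0% and 42.3% of all tested genes. With a trend on GC content removed as well, Yap1 was called lower at -0.18 and Tead1 stood at 0.10. Wwtr1 kept its sign, at -0.13 and -0.34, and stood at -0.35 with upper quartile scaling. The 7 targets kept log2 fold changes of at least 0.86 under both corrections, and Ccn1 stood at 4.59 and 4.72.

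**Figure D2:**
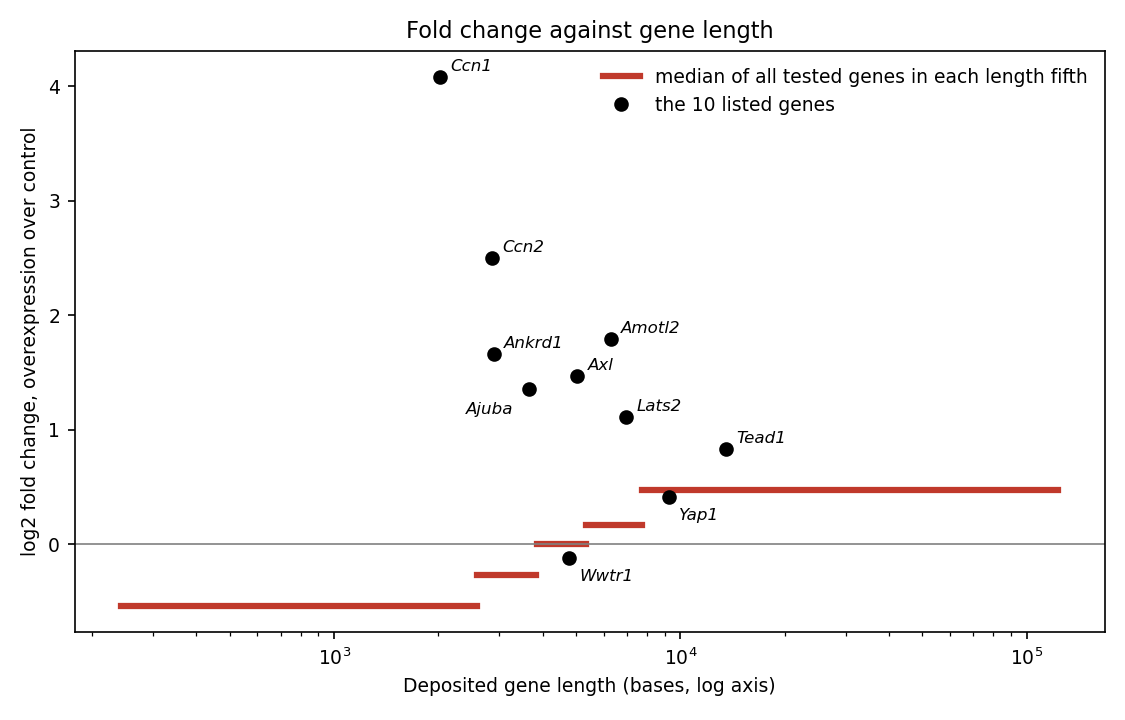
Log2 fold change of overexpression over control against the deposited gene length in bases on a log axis, with a black point for each of the 10 genes and a red line for the median of all tested genes in each of 5 equal groups by length. The red medians run from -0.54 to 0.47, Yap1 lies near the line of its group, and Ccn1 and Ccn2 lie far above theirs.

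**Figure D3:**
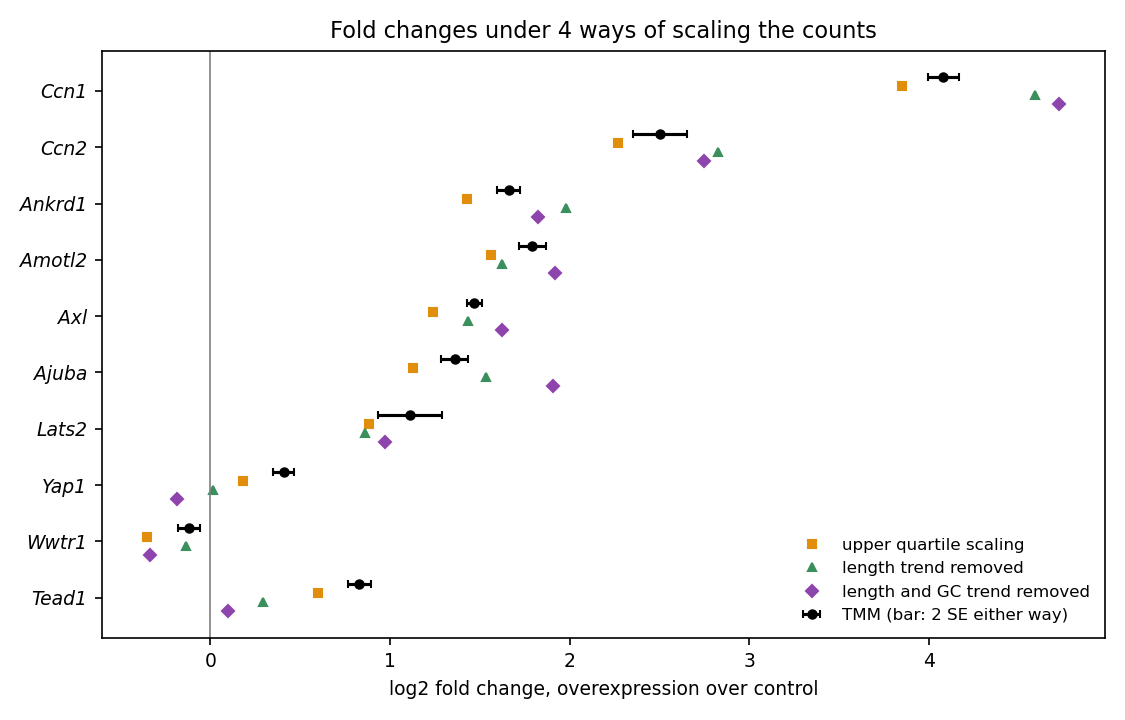
Log2 fold change of each of the 10 genes with TMM scaling (black, bars of 2 SE either way), upper quartile scaling (orange), a length trend removed (green) and a length and GC trend removed (purple). Ccn1 lies between 3.85 and 4.72, and only Yap1 lies on both sides of 0, between -0.18 and 0.41.

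Levels were compared between genes in FPKM, which takes gene length into account. With overexpression the order from highest to lowest was Axl, Ccn1, Ankrd1, Ajuba, Wwtr1, Amotl2, Yap1, Ccn2, Tead1 and Lats2, and no neighbours in it overlapped over the 3 libraries. In the controls the order was Axl, Wwtr1, Ankrd1, Ajuba, Yap1, Ccn1, Tead1, Amotl2, Ccn2 and Lats2. There the ranges of Ajuba and Yap1 overlapped, as did those of Ccn1 and Tead1 and of Tead1 and Amotl2. Axl averaged 249 ± 1.75 FPKM with overexpression and 96 ± 0.444 FPKM in the controls (SD, n = 3 each). Ccn1 averaged 175 ± 4.74 FPKM with overexpression and 11 ± 0.82 FPKM in the controls, and its rank among all tested genes was 185 with overexpression and 4536 in the controls. Lats2, the lowest of the 10, averaged 4.23 ± 0.137 FPKM with overexpression and 2.09 ± 0.211 FPKM in the controls.

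The balance of the paired genes was compared within libraries. Yap1 stood at 0.725, 0.716 and 0.708 of the FPKM of Wwtr1 in the overexpression libraries and at 0.497, 0.485 and 0.506 in the controls. In FPKM Wwtr1 was thus the more abundant of the pair in all 6 libraries. That order rests on the deposited gene lengths, 9257 bases for Yap1 and 4779 bases for Wwtr1. In CPM, which is not divided by length, Yap1 averaged 264.5 with overexpression and 199.2 in the controls. Wwtr1 averaged 190.7 and 207.3 CPM. The log2 ratio was higher with overexpression by 0.53 ± 0.02 (SE of the difference, n = 3 each; exact permutation p = 0.1, two-sided, the smallest possible). Yap1 is the longer gene, and from the fold changes with the length trend removed the difference was 0.15, also with the GC trend removed as well. Lats2 stood at 0.174, 0.175 and 0.176 of the FPKM of Lats1 with overexpression and at 0.1815, 0.154 and 0.206 in the controls. These groups overlapped, with a log2 difference of -0.04 ± 0.12 (exact permutation p = 0.7) that became 0.06 without control replicate 3 and 0.32 with the length and GC trend removed.

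Within the TEAD family the FPKM shares of the 4 genes differed between the groups. Tead1 made up 35.9, 36.3 and 35.2% of the summed FPKM of Tead1 to Tead4 with overexpression and 18.4, 17.1 and 17.6% in the controls, a difference of 18.1 ± 0.49 percentage points (SE, n = 3 each; exact permutation p = 0.1). Tead1 is a long gene, and from the fold changes with the length trend removed the difference was 9.32 points, and 2.43 points with the length and GC trend removed. Tead2 made up 30.4 ± 0.81% with overexpression and 64.1 ± 0.85% in the controls (SD, n = 3 each). Tead4 made up 27.5 ± 0.32% with overexpression and 8.43 ± 0.3% in the controls, and Tead3 made up 6.31 ± 0.37% and 9.8 ± 0.57%. The shares of Tead2, Tead3 and Tead4 are given with no length or GC trend removed. With the length and GC trend removed, the log2 fold changes were -0.92 for Tead2, -0.68 for Tead3 and 2.06 for Tead4. The summed FPKM of the family was between 49.3 and 49.6 with overexpression and between 58.5 and 62.9 in the controls. Unlike the shares, this sum depends on library scaling. The deposited FPKM uses library totals without TMM factors, and no length trend was removed from the sum.

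**Figure D4:**
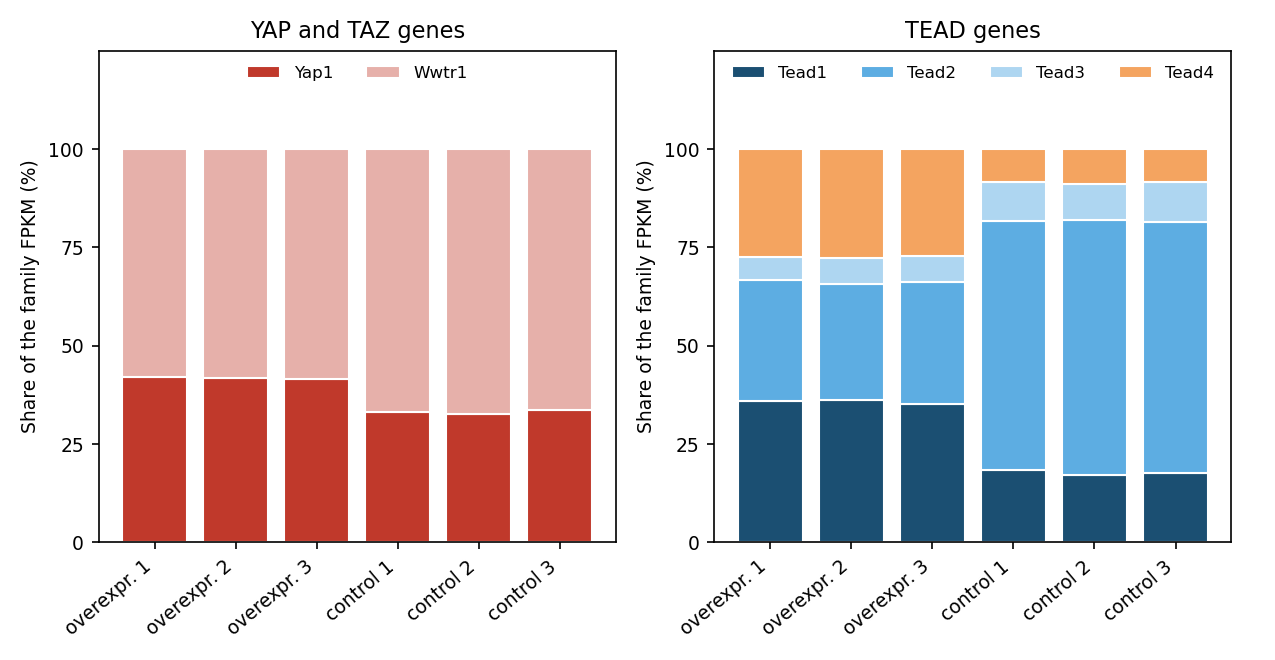
Share of summed FPKM in percent per library, overexpression libraries at the left and control libraries at the right of each panel, for Yap1 and Wwtr1 (left panel) and for the 4 TEAD genes (right panel). Wwtr1 is the larger part of its pair in all 6 libraries, and Tead2 takes 30.4% on average with overexpression and 64.1% in the controls. No length or GC trend was removed from these shares.

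In counts, Tead2 had 75.1, 72 and 76.2 CPM with overexpression and 171.4, 177.5 and 186.9 CPM in the controls, a log2 fold change of -1.26 ± 0.04 (edgeR adjusted p = 3.5e-37). Tead3 fell to 21.7 ± 1.34 CPM with overexpression, against 38.3 ± 3.35 CPM in the controls (SD, n = 3 each; log2 fold change -0.82, edgeR adjusted p = 5.15e-15). Tead4 rose 2.86-fold to 50.5 ± 0.41 CPM with overexpression, against 17.6 ± 0.7 CPM in the controls (edgeR adjusted p = 2.49e-28). The cofactor gene Vgll3, whose protein binds TEADs, rose 6.2-fold to 16.6 ± 1.9 CPM, against 2.67 ± 0.28 CPM in the controls (edgeR adjusted p = 2.5e-24). Vgll4, which competes with YAP for TEADs, rose 1.34-fold. Of the 5 tested genes of this list 3 rose and 2 fell, beside 42.1% higher and 43.9% lower calls over all tested genes, with a median log2 fold change of 0.42, and these calls kept their direction with upper quartile scaling and with the length trend removed. Vgll1 and Vgll2 had 0 counts in every library.

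Most genes of the kinase cascade that acts against YAP rose too. Of its 14 genes, all tested, 12 rose, 1 fell and 1 was not called, where 42.1% of all tested genes were called higher and 43.9% lower. Their median log2 fold change was 0.97, against -0.03 over all tested genes, and was 0.68 with the length trend removed and 0.47 with the length and GC trend removed. Sav1, the scaffold of the MST kinases, had 62.5, 67.7 and 64.7 CPM with overexpression and 19.7, 16.9 and 23.4 CPM in the controls (log2 fold change 1.70 ± 0.07, edgeR adjusted p = 5.76e-29). Wwc2, a relative of the upstream activator KIBRA, rose 2.6-fold, and Stk4, which encodes MST1, rose 2.52-fold. Lats1, the paralog of Lats2, rose 2.22-fold to 182.4 ± 5.61 CPM, against 82.2 ± 5.75 CPM in the controls (SD, n = 3 each; edgeR adjusted p = 6.68e-35). Taok3, an upstream kinase gene at low level, averaged 13.6 CPM with overexpression and 16.5 CPM in the controls (edgeR adjusted p = 0.0117), a call lost without overexpression replicate 3 (adjusted p = 0.089). With the length trend removed 10 of the 14 were called higher and 4 lower, where 43.0% and 42.3% of all tested genes were. With upper quartile scaling the list gave 10 higher and 3 lower calls, beside 3961 and 6288 among the 11809 tested genes. Wwc2 stood at 0.84 with the length trend removed, and Lats1 at 0.65 with the length and GC trend removed. Several smaller changes turned. Nf2, which encodes merlin, stood at 0.12, at -0.11 with upper quartile scaling and at -0.12 with the length trend removed. Map4k4 stood at 0.33 and at -0.08 with the length trend removed, and Stk3, which encodes MST2, stood at 0.31 and at -0.14 with the length and GC trend removed.

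Of 10 genes for YAP binders and upstream regulators 7 were tested, and 6 rose and 1 fell, against 42.1% and 43.9% of all tested genes. Fat1, an atypical cadherin, had 587.9, 560 and 569.3 CPM with overexpression and 146.8, 137.1 and 146.5 CPM in the controls (a 3.99-fold rise, edgeR adjusted p = 1.08e-55). Strn3 and Slmap, both parts of the STRIPAK phosphatase complex that inactivates the MST kinases, rose 2.31-fold and 2.01-fold. Ptpn14, a phosphatase that binds YAP, rose 2.27-fold. With the length and GC trend removed these log2 fold changes were smaller. They stood at 1.47 for Fat1, 0.68 for Strn3, 0.47 for Slmap and 0.78 for Ptpn14. Amotl1, the angiomotin-family relative of Amotl2, fell to 547.2 ± 4.35 CPM with overexpression, against 669.9 ± 25.8 CPM in the controls (SD, n = 3 each; edgeR adjusted p = 3.32e-17). The list holds genes that act for and against YAP. Its directions were the same with upper quartile scaling and with the length trend removed, with 6 called higher and 1 lower in both. Of all 11809 tested genes, 3961 were called higher and 6288 lower with upper quartile scaling, and 5074 and 4993 with the length trend removed. Wtip had 0 counts in every library, and Fat4 and Dchs1 were too low to test.

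The other targets went in both directions. Of 16 further genes from a target signature made on human tumours 12 were tested, and 7 rose, 3 fell and 2 were not called, against 42.1% higher and 43.9% lower of all tested genes. Their median log2 fold change was 0.31. Crim1, a membrane protein that binds growth factors, rose 3.37-fold to 126.8 ± 3.53 CPM, against 37.6 ± 3.1 CPM in the controls (SD, n = 3 each; edgeR adjusted p = 4.45e-39). Dock5, a guanine nucleotide exchange factor, rose 3.04-fold, and Myof, a membrane repair protein, rose 2.03-fold. Both are long genes, and their log2 fold changes were 1.11 for Dock5 and 0.51 for Myof with the length trend removed, and 1.01 and 0.41 with the length and GC trend removed. Ptpn14, given above, stands on this list too. Gadd45a, a stress and DNA damage response gene, had 5.7, 5.08 and 5.87 CPM with overexpression and 119.2, 115.7 and 109.8 CPM in the controls. That is a 20.7-fold fall, a log2 fold change of -4.37 ± 0.08 (edgeR adjusted p = 4.52e-51), as large in size as the rise of Ccn1. Nuak2, a kinase gene, averaged 20.7 CPM with overexpression and 26.7 CPM in the controls (edgeR adjusted p = 7.13e-05). F3, the tissue factor gene, averaged 9.13 and 11 CPM with overlapping groups (edgeR adjusted p = 0.045). Its call was lost without overexpression replicate 1 (adjusted p = 0.0651) or 2 (0.32), without control replicate 1 (0.115) or 3 (0.19), and with the length trend removed (0.346). Nt5e and Arhgef17, called higher at 0.29 each, stood at -0.08 and -0.16 with the length trend removed. Upper quartile scaling left 5 higher and 3 lower calls on this list, beside 3961 and 6288 among all 11809 tested genes. Nuak2 was no longer called with the length and GC trend removed (-0.06, adjusted p = 0.526). Igfbp3 had 0 counts in every library, and Foxf2, Ccdc80 and Rbms3 were too low to test.

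**Figure D5:**
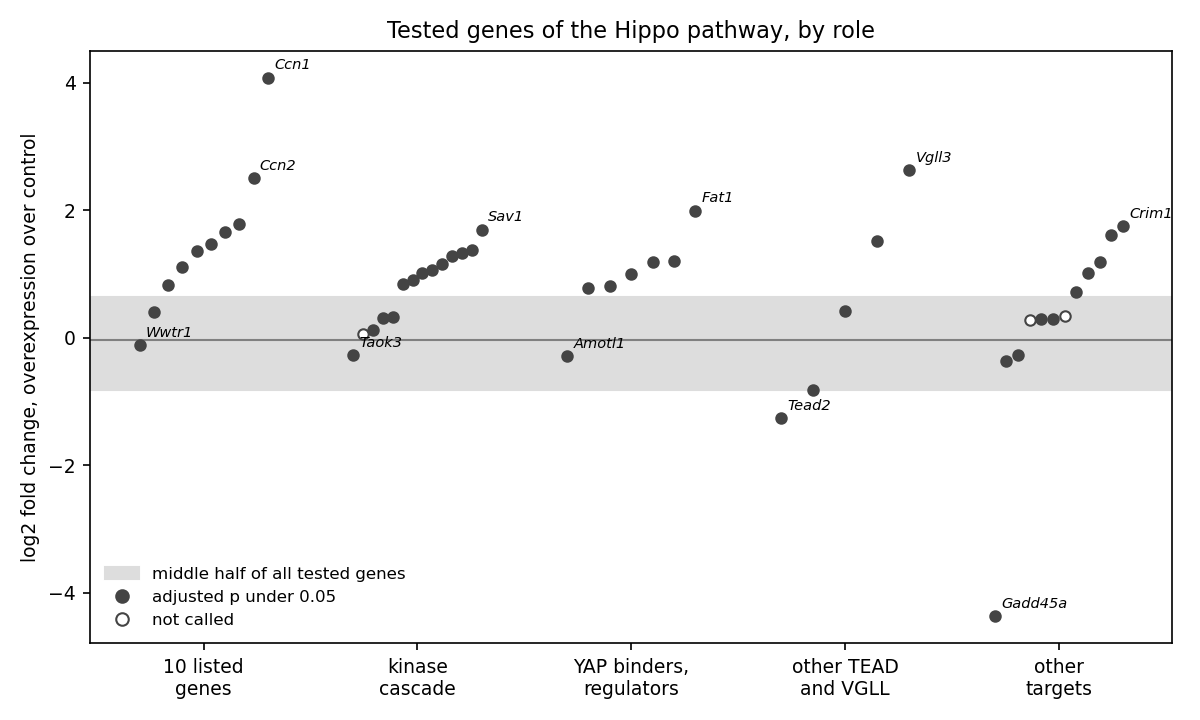
Log2 fold change of overexpression over control for every tested gene of the 10 listed genes and of the 4 other lists, ordered within each list, with filled points for an adjusted p under 0.05 and open points for genes not called. The grey band spans the interquartile range of all tested genes and the line marks their median of -0.03, and the points run from -4.37 for Gadd45a to 4.08 for Ccn1.

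The authors' deposited table gives log2 fold changes whose direction, recovered from its group means, is overexpression over control. In the authors' deposited table all 10 genes have an adjusted p under 0.05 and the same sign as here, and its log2 fold changes differ from those given above by at most 0.0117.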

How the data were processed

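The authors deposited read counts per gene as raw counts, per the file headers, and FPKM values. Recomputing FPKM from count, deposited gene length and column total matched every nonzero value to within 0.00049%. The authors also deposited a table of log2 fold changes and adjusted p-values. HISAT2, HTSeq, DESeq and mm9 are named by the submitters' processing notes, with no versions. Of 21936 listed genes 21681 have the coordinates of GENCODE mouse release M21 for GRCm38, as do all 10 genes described here, so GRCm38 is used. The labels do not state the strand setting or the handling of shared reads.

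Counts were compared with edgeR 4.0.16 (R 4.3.3): filterByExpr with a minimum count of 10, TMM scaling, the robust quasi-likelihood F test, two-sided, Benjamini-Hochberg adjustment over all 11809 tested genes and a threshold of 0.05. The same fit was tested on simulated data for this comparison (11690 genes). It called 50 of 50 genes set to a log2 change of 1, 48 of 50 set to 0.5, and 16 of 11490 left unchanged. The simulation changed few genes, equally up and down, with the same variability for all genes and no trend on length. In the data 86.0% of tested genes were called, so the simulated share of false calls may not hold for them. The biological coefficient of variation was 2.93%. Ratios within libraries were compared by exact permutation. Alternatives used DESeq2 1.42.0, limma 3.58.1 on log2(FPKM + 1), other scalings and filters, a lowess on length (span 0.3) as an offset, and left-out libraries. For the GC trend, the GC content of a gene was that of its longest transcript in GENCODE M21. For Yap1 that transcript has 2 exons, and whether it is the one expressed was not tested. Same-group libraries differed by more than sampling noise (chi-square per degree of freedom between 1.87 and 2.63).

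By rule all 10 members were named, and of each other list at least the 3 largest called rises and falls. The CCN relatives and the 5 genes nearest in profile to Ccn1 were to be named too, of which 1 is not reported here. The members and lists were chosen with earlier results of these data known. The trend on GC content and the length-corrected ratios and shares were added after seeing the data.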

Additional observations from a re-analysis of the deposited data

How the results depend on the processing

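Among the 10 genes the direction held under all 19 alternatives in 9, and Yap1 reversed to -0.18 with the length and GC trend removed. One of these alternatives, glmTreat, keeps the log2 fold change of the main fit, so its direction could not differ. Of the 10 genes none was called lower by glmTreat (0), and 2 were with the length and GC trend removed. Kinase cascade genes called lower numbered 3 with upper quartile scaling, 0 by glmTreat, 4 with the length trend removed, 2 with the length and GC trend removed, and 0 to 1 when 1 library was left out. YAP binders and regulators called lower numbered 0 by glmTreat and other targets 1. Among all 11809 tested genes, lower calls numbered 6288 with upper quartile scaling and 3185 by glmTreat. They numbered 4993 with the length trend removed and 4998 with the length and GC trend removed. Over all genes glmTreat called 5947. Upper quartile scaling moved the all-gene median to -0.26 (log2), against -0.03 with TMM, and gave 3961 higher and 6288 lower calls, against 4975 and 5184. FPKM with a pseudocount of 5 understates low genes, with Ccn2 at 1.56 and Lats2 at 0.38. The log2 ratio of Lats2 to Lats1 differed by -0.145 to 0.0636 when 1 library was left out, and by 0.32 with the length and GC trend removed. With the length trend removed, and with length and GC removed, the difference was 0.15 and 0.154 for the log2 ratio of Yap1 to Wwtr1, 1.76 and 1.98 for Ccn1 to Ccn2, and 9.32 and 2.43 points for the share of Tead1. With the replicate block the 10 genes gave the same 9 higher and 1 lower calls and 10116 calls over all genes. Same-numbered libraries did not deviate together (correlations from -0.0309 to -0.0031). No pairing by number was thus seen, but these correlations cannot show whether libraries were processed in pairs. The exact tests on ratios cannot pass 0.05 in this design.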

Other observations

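Of the other CCN genes, Ccn3 and Ccn5 fell. Ccn3, known as an antiproliferative matricellular protein, had 2.16, 3.04 and 3.35 CPM with overexpression and 10.7, 11.1 and 11.8 CPM in the controls. It fell 3.9-fold, a log2 fold change of -1.96 ± 0.16 (edgeR adjusted p = 6.73e-17), and its groups were apart. Ccn5, which lacks the C-terminal domain of its relatives, averaged 0.198 ± 0.054 CPM with overexpression and 1.89 ± 0.39 CPM in the controls (SD, n = 3 each; edgeR adjusted p = 1.81e-08) on few counts. Ccn4 averaged 11.3 and 11.9 CPM with overlapping groups and was not called (edgeR adjusted p = 0.535), but was called lower with upper quartile scaling (-0.31, adjusted p = 0.0146). Ccn6 was too low to test, with 8, 10 and 8 counts in the overexpression libraries and 1, 5 and 6 counts in the controls.

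Among the tested genes whose centred log2 CPM profile over the 6 libraries lay nearest to that of Ccn1 were Adam12, Mfsd2a, Uprt and Cyp51, at root mean square distances of 0.0922, 0.111, 0.13 and 0.156. With only 2 groups this likeness mostly reflects a similar fold change, which was 4.24 for Adam12 and 3.77 for Cyp51 on the log2 scale. Cyp51, a sterol synthesis enzyme, had 341.4 ± 5.48 CPM with overexpression and 25 ± 1.32 CPM in the controls (SD, n = 3 each).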
